A study of Mus musculus with 8 samples.

Results

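The genes described here are 42 genes of the G1/S transition and of DNA replication. They were chosen by name for their function, with earlier results of these data known. All 42 were found among the 24421 gene names of the files, and all 42 passed the filter on low values that left 12012 genes for testing. They were sorted by function into 8 roles. Origin licensing held 10 genes, helicase activation 6, polymerases and primase 7, the sliding clamp and its loader 6, Okazaki fragment joining 2, replication-coupled chromatin 3, nucleotide supply 5 and G1/S regulators 3.

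RNA was sequenced from MCa-P1362, a mouse breast tumour cell line grown in DMEM with serum, after flow sorting on EpCAM, a cell surface adhesion molecule of epithelial cells. The 8 libraries form 4 groups of 2, namely EpCAM+ and EpCAM- cells, each labelled coculture or monoculture. The protocol says that sorted cells were frozen either at once after the sort or after growth and 1 passage. It does not say which of these histories the words coculture and monoculture stand for, so the label words are used below. No genetic change, drug or other agent is named for any group, and all groups come from the same line. Whether both libraries of a group were grown separately is not stated, and the p-values cover the spread seen among these 8 libraries and nothing beyond it.

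A cell can copy its genome only at origins that were licensed in G1, when the origin recognition complex, Cdc6 and Cdt1 load the Mcm2 to Mcm7 helicase onto DNA. Cyclin E with its kinase drives the cell into S phase, where Cdc45 and the GINS complex switch the helicase on, and the polymerases, the Pcna clamp and the enzymes that supply nucleotides build the new strands. Many of these genes are textbook targets of E2F transcription factors, which the retinoblastoma protein holds back until late G1. In bulk RNA, fewer cells in S phase and less RNA per cell cannot be told apart.

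The values are FPKM, fragments per kilobase of transcript scaled to the number of fragments, which correct for gene length and so allow levels of different genes to be set side by side. The sums per library ran from 387489 to 414612 FPKM, and between 10634 and 11119 genes reached 1 FPKM in a library. The sort labels were checked on marker lists. The summed FPKM of 10 epithelial markers was between 8138 and 9245 in the EpCAM+ libraries and between 15.0 and 28.9 in the EpCAM- libraries. The sum of 11 mesenchymal and fibroblast markers was between 10163 and 10441 in the EpCAM- libraries. In the EpCAM+ libraries it was 177 and 176 in coculture and 15.1 and 15.2 in monoculture. The sums of 10 leukocyte markers stayed between 1.16 and 3.89 FPKM, with Cd3e, Adgre1 and Tyrobp listed at 0 in every library, and those of 8 endothelial markers between 0.147 and 1.27.

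Promoter sequence was available from RefSeq (GRCm38.p6) for 34 of the 42 genes. The 250 bases before each start site were searched on both strands for 4 words recognised by E2F, TTTCCCGC, TTTCGCGC, TTTGCCGC and TTTGGCGC, which can overlap each other by part of their letters. At least 1 word was found for 9 of the 34 genes (26.5%), against 364 of the 8995 tested genes with a promoter sequence (4.05%). Some genes have more than 1 start site, and a word before any of them counted. Mcm7 and Uhrf1 each also have a start site with no word before it. The word CCAAT, the core of the NF-Y element, was found for 19 of the 34 (55.9%), against 40.8% of the tested genes with a promoter sequence. A match describes the letters only. The stretch around the word nearest to the start site is printed for the 9 genes, because they are the members in which the textbook E2F element can be seen, each 5′ to 3′ on the strand of its gene with the E2F words in capitals.

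Orc1, chr4:108579416-108579445, plus strand, in an annotated exon of Orc1: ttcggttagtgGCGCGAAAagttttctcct

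Cdc6, chr11:98908002-98908031, plus strand, in an annotated intron of Cdc6: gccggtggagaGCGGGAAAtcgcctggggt

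Mcm5, chr8:75109349-75109378, plus strand, in no annotated gene: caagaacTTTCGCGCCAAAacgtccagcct

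Mcm6, chr1:128359734-128359763, minus strand, in no annotated gene: gattggacgggTTTGGCGCgaagtagctca

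Mcm7, chr5:138172030-138172059, minus strand, in an annotated exon of Mcm7 and of Ap4m1: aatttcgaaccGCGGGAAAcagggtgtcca

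Gins3, chr8:95633507-95633536, plus strand, in an annotated exon of Gins3: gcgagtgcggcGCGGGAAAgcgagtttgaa

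Pola1, chrX:93632275-93632304, minus strand, in no annotated gene: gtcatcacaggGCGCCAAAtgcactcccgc

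Rfc3, chr5:151651209-151651229, minus strand, in an annotated exon of Rfc3: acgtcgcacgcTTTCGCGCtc

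Uhrf1, chr17:56304117-56304146, plus strand, in an annotated intron of Uhrf1: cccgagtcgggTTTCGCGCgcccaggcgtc

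In Mcm5 the capitals hold 2 overlapping words, TTTCGCGC and GCGCCAAA. Licensing genes accounted for 5 of the 9, namely Orc1, Cdc6, Mcm5, Mcm6 and Mcm7. Of the members higher in EpCAM+ cells in both cultures (described next), 7 of the 27 with a promoter sequence held a word (25.9%), and of the members lower in EpCAM+ cells in both cultures 0 of 3 did.

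The first question the design poses is how the EpCAM+ fraction differed from the EpCAM- fraction. Most of the 42 genes were called higher in EpCAM+ cells in coculture (35, against 59.2% of all genes). Scaling by the median of ratios left 20, against 41.4% of all genes. The 3 G1/S regulators, cyclin E1 (Ccne1), cyclin E2 (Ccne2) and the activator E2f1, were lower. So were Gins2, a subunit of the GINS complex, and Rrm2, the small subunit of ribonucleotide reductase. In coculture 35 of the 42 genes were called higher and 5 lower at an adjusted p under 0.05. Among all tested genes 59.2% were called higher and 28% lower, so a large part of the transcriptome also differed. The median log2 fold change of the 42 genes was 0.36, against 0.26 for all genes, and 24 of the 42 lay above that all-gene median. In monoculture 33 were called higher and 5 lower, against 55.4% and 32.4% of all genes, and the median was 0.37 against 0.23, with 27 of 42 above the latter.

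The calls matched gene by gene to a large extent. Of the 42, 32 genes were called higher in both cultures and the same 5 lower in both. Gins3, Prim2 and Pole2 were called higher in coculture and not called in monoculture, Rrm1 was called higher in monoculture and not called in coculture, and Pola1 was called in neither. Changes were small for most: in coculture 1 gene, Tk1, reached 2-fold upward and 0 downward, against 16.5% and 10.1% of all genes. In monoculture 1 gene, Cdc6, reached 2-fold upward and 1, Gins2, downward, against 15.5% and 12.6%. The libraries of the 2 fractions did not overlap for 42 members in coculture and 39 in monoculture, the exceptions being Pola1, Prim2 and Pole2. Groups did not overlap for 93.4% and 93.3% of all genes.

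Scaling between libraries bears on these counts, because EpCAM+ libraries had higher values for most genes. Scaling by the median of ratios moved the all-gene median by -0.26 in coculture and by -0.23 in monoculture. It left 20 members higher and 11 lower in coculture, where 41.4% and 42.3% of all genes were then called. In monoculture it left 22 higher and 11 lower, against 42.9% and 42.9%. The fold changes below are relative to FPKM as deposited, and a member whose log2 fold change is under 0.26 in coculture or 0.23 in monoculture lay below the typical gene.

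**Figure D1:**
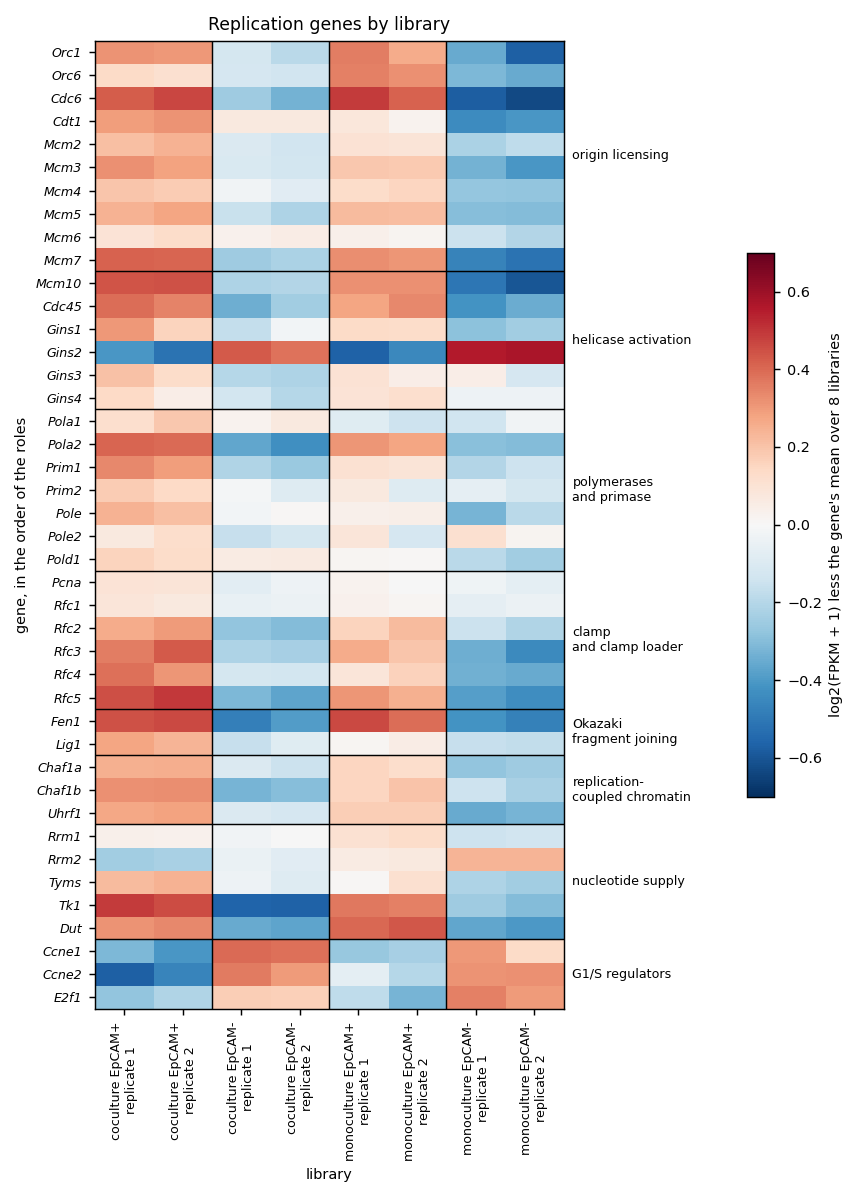
The 42 genes (rows, grouped by role) in the 8 libraries (columns), as log2(FPKM + 1) less each gene's mean over the libraries, red above and blue below that mean. Most rows are redder in the EpCAM+ columns, while Gins2, Rrm2, Ccne1, Ccne2 and E2f1 are bluer there.

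The G1/S regulators gave the clearest contrast with the rest. Ccne1 (chr7:38097984-38107534, GRCm38), the cyclin that activates Cdk2 before S phase, measured 16.1 and 15.0 FPKM in the 2 coculture EpCAM+ libraries and 26.9 and 26.8 in coculture EpCAM-. In monoculture it measured 16.6 and 17.1 in EpCAM+ and 25.2 and 22.3 in EpCAM-. Both EpCAM- groups thus lay above both EpCAM+ groups without overlap. The log2 fold change of EpCAM+ over EpCAM- was -0.75 in coculture (SE 0.0565, adjusted p = 3.89e-06) and -0.47 in monoculture (SE 0.0565, adjusted p = 7.67e-05).

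Ccne2 (chr4:11191351-11204779), the second E-type cyclin, was the member with the lowest level in coculture EpCAM+, 3.70 and 4.06 FPKM, against 7.99 and 7.59 in coculture EpCAM-. It measured 5.66 and 5.08 FPKM in monoculture EpCAM+ and 7.67 and 7.69 in monoculture EpCAM-. The EpCAM- libraries were the 4 highest. The log2 fold changes were -0.85 (adjusted p = 2.47e-06) and -0.45 (adjusted p = 0.000142). Ccne2 lies on chromosome 4, where the median of all 720 tested genes was 0.55 in coculture and 0.52 in monoculture, so its change less that median was -1.40 and -0.96.

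E2f1 (chr2:154559407-154569892), an activating E2F factor, measured 16.5 and 17.3 FPKM in coculture EpCAM+, 22.9 and 22.8 in coculture EpCAM-, 17.7 and 15.9 in monoculture EpCAM+ and 26.1 and 25.1 in monoculture EpCAM-. The 4 EpCAM- libraries were again above the 4 EpCAM+ libraries. Its log2 fold changes were -0.41 (adjusted p = 9.04e-05) and -0.58 (adjusted p = 9.65e-06). All 3 regulators stayed called lower in both cultures under each of the 20 alternative settings, and their median log2 fold change less that of all genes was -1.01 in coculture and -0.70 in monoculture.

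**Figure D2:**
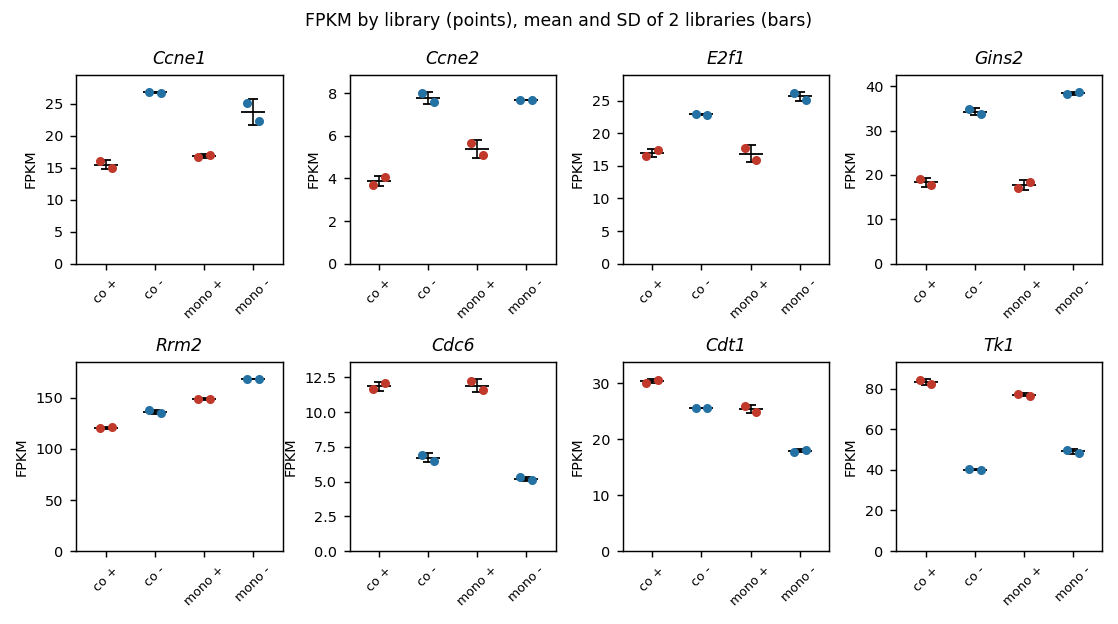
FPKM of 8 members in the coculture (co) and monoculture (mono) libraries of EpCAM+ (red) and EpCAM- (blue) cells. Each point is a library, and the bars give the mean and SD of the 2 libraries of a group. Ccne1, Ccne2, E2f1, Gins2 and Rrm2 are higher in EpCAM- cells of the same culture, and Cdc6, Cdt1 and Tk1 in EpCAM+ cells.

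Origin licensing was called higher in EpCAM+ cells in 10 of 10 genes in both cultures, against 59.2% and 55.4% of all genes. The median log2 fold change was 0.38 in coculture and 0.54 in monoculture. The count stayed at 10 under 11 of the 20 alternative settings in coculture (range 5 to 10) and under 19 in monoculture. Mcm6, higher by 0.07 in coculture, was not called there with a constant sum per library (-0.02, adjusted p = 0.350). Nor was it with the replicate numbers as a block (adjusted p = 0.0502). Under scaling by the median of ratios 5 were called higher and 1 lower in coculture, and 8 higher and 0 lower in monoculture. Cdc6 (chr11:98907801-98923940), the ATPase that loads the helicase, measured 11.6 and 12.1 FPKM in coculture EpCAM+ and 6.94 and 6.50 in coculture EpCAM-. In monoculture it measured 12.2 and 11.6 in EpCAM+ and 5.31 and 5.09 in EpCAM-. The EpCAM+ values of both cultures were alike and the monoculture EpCAM- libraries were the lowest. The log2 fold change was 0.74 in coculture (adjusted p = 1.6e-06) and 1.06 in monoculture (SE 0.0481, adjusted p = 1.45e-07). Less the median of chromosome 11, which was 0.50 and 0.47 over 970 genes, these came to 0.24 and 0.58.

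Cdt1 (chr8:122568015-122573554), the partner of Cdc6 in helicase loading, measured 30.1 and 30.6 FPKM in coculture EpCAM+ and 25.6 in both coculture EpCAM- libraries. In monoculture it measured 25.8 and 24.8 in EpCAM+ and 17.7 and 18.1 in EpCAM-. Its fold change in coculture, 0.23 (adjusted p = 0.000113), was close to that of all genes and turned to -0.05 under scaling by the median of ratios, while that in monoculture was 0.48 (adjusted p = 1.13e-06).

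The helicase subunits Mcm2 to Mcm7 ranged from 0.07 (Mcm6) to 0.64 (Mcm7) in coculture and from 0.21 to 0.81, again Mcm6 and Mcm7, in monoculture. Mcm2 (chr6:88883474-88898780) measured 66.4 and 67.8 FPKM in coculture EpCAM+, 53.2 and 52.0 in coculture EpCAM-, 61.4 and 60.9 in monoculture EpCAM+ and 48.9 and 50.5 in monoculture EpCAM-. Mcm5 (chr8:75109569-75128439) measured 66.6 and 68.2, 50.2 and 48.1, 65.6 and 65.3, and 45.4 and 45.3 FPKM in the same order of groups. Both genes were higher in every EpCAM+ library than in any EpCAM- library, with log2 fold changes of 0.35 and 0.45 in coculture and 0.29 and 0.52 in monoculture. With scaling by the median of ratios the Mcm2 values were 0.06 and 0.04 (adjusted p = 0.079 and 0.19). Mcm7 had mean levels of 103 ± 0.203 and 65.9 ± 1.01 FPKM in coculture EpCAM+ and EpCAM- (SD, n = 2), and of 97.2 ± 0.793 and 54.9 ± 1.25 in monoculture.

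Helicase activation was split. Mcm10, Cdc45, Gins1 and Gins4 were called higher in EpCAM+ cells in both cultures, Mcm10 by 0.65 and 0.87 (adjusted p = 9e-07 and 1.29e-07), Cdc45 by 0.66 and 0.69, Gins1 by 0.32 and 0.40 and Gins4 by 0.26 and 0.14. With scaling by the median of ratios 2 of the 6 genes were called higher and 1 lower in coculture, and 3 higher and 2 lower in monoculture. Gins4 then came to -0.02 (adjusted p = 0.586) and -0.11 (adjusted p = 0.0316, called lower), and Gins1 to 0.05 (adjusted p = 0.485) and 0.16 (adjusted p = 0.0454). Gins2 (chr8:120578633-120589304) measured 19.1 and 17.6 FPKM in coculture EpCAM+ and 34.9 and 33.7 in coculture EpCAM-, and 17.0 and 18.5 against 38.2 and 38.7 in monoculture. Its log2 fold change was -0.87 in coculture (SE 0.0487, adjusted p = 6.19e-07) and -1.07 in monoculture (adjusted p = 1.46e-07), the lowest of the 42 in each. Gins2 and Gins4 encode subunits of one complex, and the ratio of their FPKM within a library, which no scaling between libraries changes, was between 0.648 and 0.703 in the 4 EpCAM+ libraries and between 1.56 and 1.62 in the 4 EpCAM- libraries.

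Among the polymerases and primase, which start and extend the new strands, 6 of 7 were called higher in EpCAM+ cells in coculture. In monoculture 4 of 7 were. Among all genes 59.2% and 55.4% were called higher. Pola2, the regulatory subunit of polymerase alpha, had the highest fold change of the role, 0.80 in coculture (adjusted p = 7.35e-08) and 0.59 in monoculture. Pola1, its catalytic subunit, was not called, with 0.11 (adjusted p = 0.0776) and -0.03 (adjusted p = 0.573). The median of the role, 0.23 in both cultures, was at the level of all genes, and with scaling by the median of ratios 2 were called higher and 2 lower in coculture and 1 higher and 3 lower in monoculture.

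All 6 genes of the clamp and its loader were called higher in both cultures, against 59.2% and 55.4% of all genes. With scaling by the median of ratios 4 were called higher and 2 lower in both. The count stayed at 6 under 17 of the 20 alternative settings in coculture and under 5 in monoculture. Rfc1, higher by 0.07 in monoculture, was not called there with a constant sum per library (0.01, adjusted p = 0.843). Nor was it with the replicate numbers as a block (adjusted p = 0.0591) or with only the libraries compared (adjusted p = 0.0889). Rfc5, a subunit of the clamp loader, was higher by 0.81 in coculture (adjusted p = 1.41e-07) and by 0.69 in monoculture. Pcna (chr2:132249162-132253314), the sliding clamp, measured 197 and 196 FPKM in coculture EpCAM+, 174 and 179 in coculture EpCAM-, 187 and 184 in monoculture EpCAM+ and 180 and 175 in monoculture EpCAM-. The EpCAM+ libraries were the higher ones within each culture, by 0.15 (adjusted p = 0.000315) and 0.06 (adjusted p = 0.0365). These differences were below those of all genes: scaled by the median of ratios they were -0.14 and -0.20, and the monoculture call was lost when either monoculture EpCAM+ library, either coculture EpCAM+ library or monoculture EpCAM- replicate 2 was left out (adjusted p between 0.053 and 0.17).

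Fen1, the nuclease that trims Okazaki fragments, was higher by 0.89 (adjusted p = 1.43e-07) and 0.87 (adjusted p = 1.39e-07), with means of 49.5 ± 0.49 against 26.3 ± 1.22 FPKM in coculture and 48.7 ± 1.67 against 26.1 ± 0.738 in monoculture (SD, n = 2). Lig1, the ligase of the same step, was higher by 0.38 and 0.20. Its monoculture value came to -0.05 with scaling by the median of ratios (adjusted p = 0.145) and to 0.07 with quantile normalization (adjusted p = 0.0641). The 3 chromatin genes were called higher in both cultures, against 59.2% and 55.4% of all genes, and stayed so under each of the 20 alternatives. Uhrf1 (chr17:56303321-56323486), which brings the maintenance DNA methyltransferase to replicated DNA, measured 60.4 and 60.7 FPKM in coculture EpCAM+, 46.3 and 45.9 in coculture EpCAM-, 56.3 and 56.2 in monoculture EpCAM+ and 38.8 and 39.5 in monoculture EpCAM-. The 4 EpCAM+ libraries were the highest, with fold changes of 0.39 (adjusted p = 5.33e-07) and 0.51 (adjusted p = 7.98e-08).

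Nucleotide supply was mixed. Of its 5 genes, 3 were called higher and 1 lower in coculture, against 59.2% and 28% of all genes. In monoculture 4 were called higher and 1 lower, against 55.4% and 32.4%. With scaling by the median of ratios these counts were 2 and 2 in coculture and 2 and 1 in monoculture. Tyms, thymidylate synthase, was called higher in both cultures, but came to 0.02 and 0.05 with that scaling (adjusted p = 0.656 and 0.320). Tk1 (chr11:117815526-117826092), the thymidine salvage kinase, measured 84.4 and 82.4 FPKM in coculture EpCAM+ against 40.2 and 40.1 in coculture EpCAM-, and 77.5 and 76.5 against 50.0 and 48.3 in monoculture. It had the highest fold change of the 42 in coculture, 1.04 (SE 0.0251, adjusted p = 3.33e-09), and 0.64 in monoculture. Less the chromosome 11 median these were 0.54 and 0.16. Dut, which removes dUTP from the nucleotide pool, was higher by 0.69 and 0.80.

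Rrm2 (chr12:24708241-24714146), the subunit of ribonucleotide reductase whose level follows S phase, went the other way. It measured 120 and 121 FPKM in coculture EpCAM+, 138 and 135 in coculture EpCAM-, 148 and 149 in monoculture EpCAM+ and 168 in both monoculture EpCAM- libraries. The 4 groups formed 4 separate steps, and EpCAM+ was lower within each culture, by -0.17 (adjusted p = 4.19e-05) and -0.18 (adjusted p = 3.51e-05). Rrm1, the large subunit of the same enzyme, gave 0.05 in coculture (adjusted p = 0.0507) and 0.26 in monoculture (adjusted p = 3.87e-06). The monoculture value of Rrm1 came to 0.003 with scaling by the median of ratios (adjusted p = 0.901). Within a library the ratio of Rrm2 to Rrm1 was 1.25 and 1.27 in coculture EpCAM+, 1.50 and 1.45 in coculture EpCAM-, 1.47 and 1.46 in monoculture EpCAM+ and 2.00 and 1.98 in monoculture EpCAM-.

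**Figure D3:**
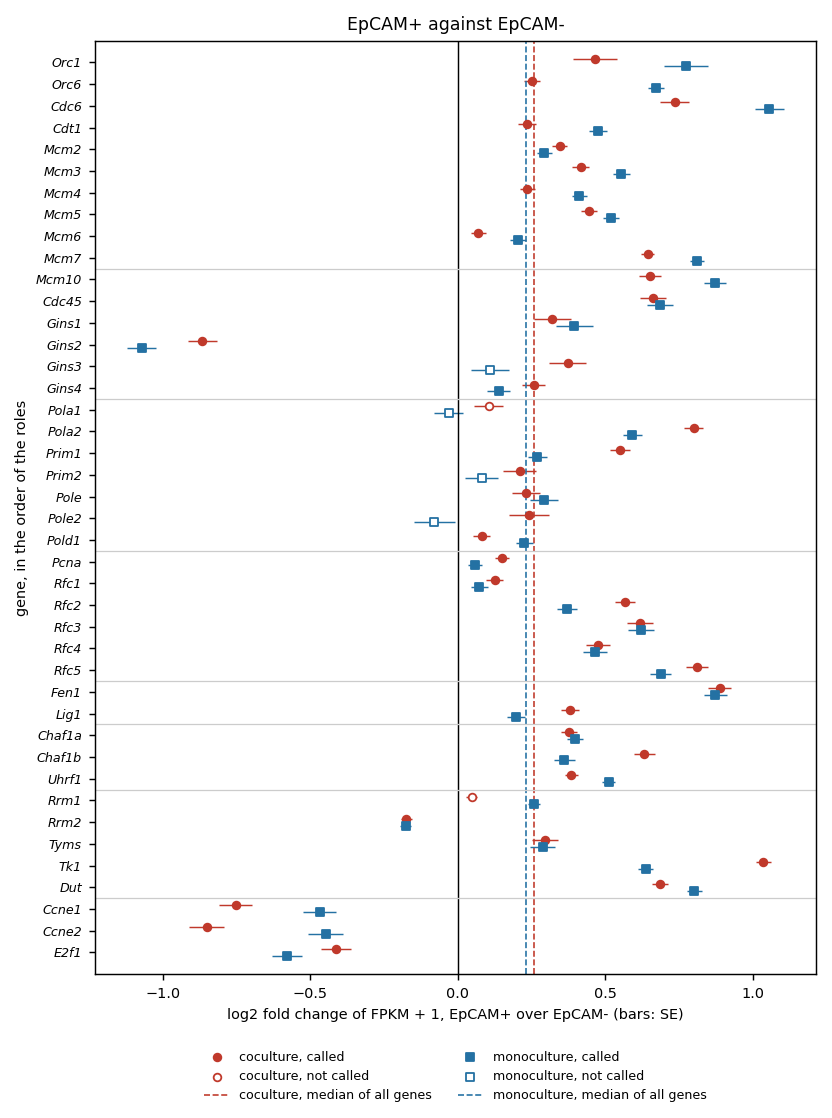
Log2 fold change of EpCAM+ over EpCAM- cells for the 42 genes in coculture (red circles) and monoculture (blue squares), with standard errors; filled symbols were called at an adjusted p under 0.05, and dashed lines mark the all-gene medians of 0.26 and 0.23. Gins2, Rrm2, Ccne1, Ccne2 and E2f1 lie left of 0 in both cultures.

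Some RNA of the EpCAM- cells may be counted in the EpCAM+ libraries, and it was estimated with the mesenchymal markers. Their median share of the EpCAM- level was 1.72% and 1.69% in the coculture EpCAM+ libraries and 0.140% and 0.141% in the monoculture EpCAM+ libraries. With these shares subtracted, 33 members were called higher and 5 lower in coculture, and 33 and 5 in monoculture. Marker RNA made by the EpCAM+ cells themselves would be part of these shares too.

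The second question is how monoculture cells differed from coculture cells of the same fraction. Changes were smaller here, and 0 members were called at 2-fold or more. Among all genes 0.266% were higher and 1.67% lower by that much in EpCAM+ cells, and 2.56% and 1.96% in EpCAM- cells. Origin licensing was lower in monoculture EpCAM- cells in 10 of 10 genes, and polymerases and primase were lower in monoculture EpCAM+ cells in 6 of 7, or in 3 of 7 with scaling by the median of ratios. Rrm2 was the 1 gene called higher in monoculture in both fractions.

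In EpCAM+ cells 5 members were called higher in monoculture and 22 lower, against 16.4% and 34.9% of all genes. The median was -0.09, against -0.06 for all genes, and 15 of 42 lay above the latter. The count of lower members was 9 under scaling by the median of ratios (26.7% of all genes), 14 without monoculture EpCAM+ replicate 2, 13 without coculture EpCAM+ replicate 1 and 12 without coculture EpCAM+ replicate 2. With the EpCAM- shares subtracted, Mcm6, Prim2 and Pcna were no longer called lower (adjusted p = 0.0784, 0.0564 and 0.0512). Libraries of the 2 cultures did not overlap for 35 of 42 members, against 77.4% of all genes.

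In EpCAM- cells 10 members were called higher in monoculture and 21 lower, against 32.4% and 30.3% of all genes. The median was -0.10 against 0.00, with 12 of 42 above the all-gene median. The count of higher members was 2 without monoculture EpCAM- replicate 1, 5 without coculture EpCAM- replicate 1 and 3 without coculture EpCAM- replicate 2. Libraries did not overlap for 36 of 42 members, against 80% of all genes.

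Licensing genes made up 10 of the 21 lower calls of EpCAM- cells. Cdt1 had the lowest fold change of the 42, -0.49 (SE 0.0299, adjusted p = 4.18e-06), from 25.6 FPKM in both coculture libraries to 17.7 and 18.1 in monoculture. Among the licensing genes Cdc6 came next at -0.32 (adjusted p = 0.000687) and Orc1, the largest subunit of the origin recognition complex, at -0.31 (adjusted p = 0.00815), with means of 4.03 ± 0.168 FPKM in coculture and 3.08 ± 0.433 in monoculture (SD, n = 2). The Mcm2 to Mcm7 subunits ranged from -0.26 (Mcm7) to -0.08 (Mcm2, adjusted p = 0.0263). The role's median was -0.24 against 0.00 for all genes, and 9 or 10 of the 10 were called lower under each of the 20 alternatives. For Mcm2 the adjusted p was 0.12 with monoculture EpCAM- replicate 1 left out and 0.14 with coculture EpCAM- replicate 1 left out.

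In EpCAM+ cells the same 10 licensing genes gave 1 higher and 5 lower, with a median of -0.06, the same to 2 decimals as that of all genes. Cdt1 was lower there too, by -0.25 (adjusted p = 0.000326), from 30.1 and 30.6 to 25.8 and 24.8 FPKM. Orc6, the smallest subunit of the origin recognition complex, was higher in monoculture by 0.21 (adjusted p = 0.000524). Its mean rose from 28.3 ± 0.283 to 33.0 ± 0.598 FPKM in EpCAM+ cells and fell from 23.6 ± 0.172 to 20.3 ± 0.388 in EpCAM- cells (SD, n = 2; log2 fold change -0.21, adjusted p = 0.000331).

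Among the genes of helicase activation, Mcm10, which binds the helicase as it starts, was lower in monoculture in both fractions, by -0.12 in EpCAM+ cells (adjusted p = 0.0305) and -0.34 in EpCAM- cells (adjusted p = 0.000131). The EpCAM+ call was lost with scaling by the median of ratios (-0.07, adjusted p = 0.158) and when any of the 4 EpCAM+ libraries was left out (adjusted p between 0.092 and 0.117). Gins2, Gins3 and Gins4 were called higher in monoculture EpCAM- cells, by 0.16, 0.17 and 0.13, while Gins1 was called lower (-0.17, adjusted p = 0.045). Gins3, the highest of the role, measured 3.58 and 3.52 FPKM in coculture EpCAM- and 4.43 and 3.85 in monoculture EpCAM- (adjusted p = 0.0429). Its call was lost when any library other than monoculture EpCAM- replicate 2 was left out, with adjusted p between 0.053 and 0.24. The other 3 calls were also lost when some single libraries were left out. Gins2 and Gins4 were not called without either monoculture EpCAM- library or without coculture EpCAM- replicate 2, and Gins1 was not called without any of those or without either monoculture EpCAM+ library (adjusted p up to 0.106, 0.126 and 0.256). Gins1 was also not called with scaling by the median of ratios (adjusted p = 0.0642). Its value was unchanged at -0.17 without either monoculture EpCAM+ library, as that group is not part of this comparison.

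Pola1 had the lowest fold change of the EpCAM+ comparison, -0.26 (SE 0.0497, adjusted p = 0.00322), from 13.1 and 13.8 FPKM in coculture to 11.3 and 10.8 in monoculture. Prim1, the catalytic subunit of primase, was lower by -0.22 (adjusted p = 0.00123) and Pole, the catalytic subunit of the leading-strand polymerase, by -0.19. The Pole call was lost without monoculture EpCAM+ replicate 1 or coculture EpCAM+ replicate 1 (adjusted p = 0.054 and 0.067). In EpCAM- cells Pole (-0.25) and Pold1 (-0.28), catalytic subunits of the 2 main replicative polymerases, were called lower. Pola2 (0.10) and Pole2 (0.21, adjusted p = 0.0291) were called higher there. The Pola2 call was lost without either monoculture EpCAM- library or coculture EpCAM- replicate 2 (adjusted p between 0.061 and 0.158). The Pole2 call was lost without monoculture EpCAM- replicate 1 and without either coculture EpCAM- library, with adjusted p between 0.067 and 0.15.

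Rfc4, a clamp loader subunit, was lower in monoculture in both fractions, by -0.23 (adjusted p = 0.00255) and -0.22 (adjusted p = 0.00198). Pcna was lower by -0.08 in EpCAM+ cells (adjusted p = 0.0169), a call lost without monoculture replicate 2, coculture replicate 1 or coculture replicate 2 of that fraction (adjusted p = 0.097, 0.075 and 0.066). Scaled by the median of ratios, the EpCAM+ value of Pcna came to -0.03 (adjusted p = 0.285). In EpCAM- cells Pcna gave 0.01 (adjusted p = 0.796). Lig1 was lower in EpCAM+ cells by -0.23 (adjusted p = 0.00073), and in EpCAM- cells it gave -0.04 (adjusted p = 0.27). Uhrf1 was lower in both, by -0.10 (adjusted p = 0.0047, and 0.099 with scaling by the median of ratios) and -0.23 (adjusted p = 4.08e-05).

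The Rrm2 rise was the same in both fractions, 0.30 in each (SE 0.0189, adjusted p = 1.21e-05 and 4.89e-06), with every monoculture library above every coculture library. Tk1 was higher in monoculture EpCAM- cells by 0.28 (adjusted p = 3.23e-05) and lower in monoculture EpCAM+ cells by -0.11 (adjusted p = 0.007). The latter came to -0.06 with scaling by the median of ratios (adjusted p = 0.0751) and was not called without coculture EpCAM+ replicate 1 (adjusted p = 0.051). Dut was higher in monoculture EpCAM+ cells by 0.09 (adjusted p = 0.021), and its call was lost without monoculture replicate 2, coculture replicate 1 or coculture replicate 2 of that fraction (adjusted p = 0.11, 0.10 and 0.057). Tyms, thymidylate synthase, was lower in both fractions, by -0.17 and -0.16. Its EpCAM+ call was lost without monoculture replicate 1 or coculture replicate 2 of that fraction, and its EpCAM- call without monoculture replicate 2 or coculture replicate 1 (adjusted p between 0.053 and 0.069).

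Of the G1/S regulators, Ccne2 had the highest fold change of the 42 in EpCAM+ cells, 0.39 (SE 0.0595, adjusted p = 0.00124), and -0.02 in EpCAM- cells (adjusted p = 0.827). Ccne1 was lower in monoculture EpCAM- cells by -0.17 (adjusted p = 0.0296) and E2f1 higher by 0.16 (adjusted p = 0.0273). Both calls were lost when any 1 of several libraries was left out, which leaves a group with 1 library. The log2 fold change of E2f1 then stayed between 0.13 and 0.16. The Ccne1 value was -0.09 (adjusted p = 0.16) when monoculture EpCAM- replicate 2 was left out, and its adjusted p was 0.097 and 0.087 when the coculture EpCAM- replicates 1 and 2 were. For E2f1 the adjusted p was 0.13 when monoculture EpCAM- replicate 1 was left out, and 0.080 and 0.094 for the coculture EpCAM- replicates 1 and 2.

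**Figure D4:**
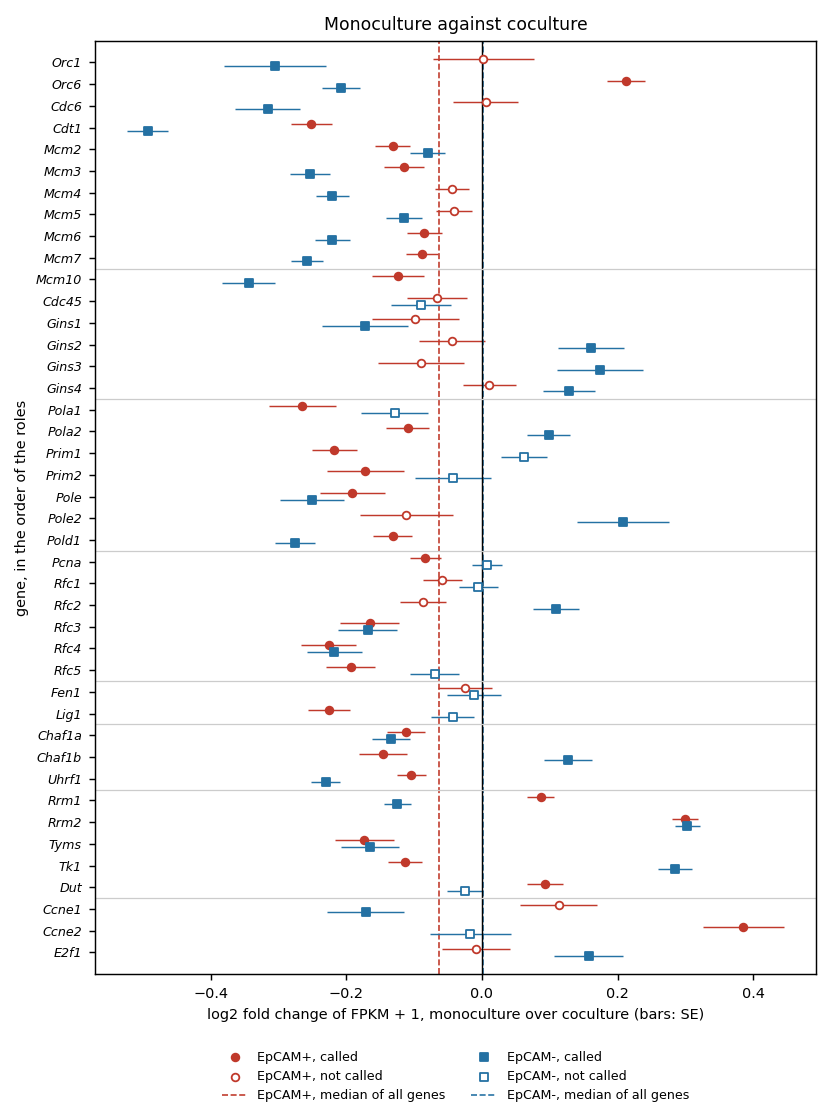
Log2 fold change of monoculture over coculture for the 42 genes in EpCAM+ (red circles) and EpCAM- cells (blue squares), with standard errors; filled symbols were called at an adjusted p under 0.05, and dashed lines mark the all-gene medians of -0.06 and 0.00. All 10 licensing genes, from Orc1 to Mcm7, have filled blue squares left of 0.

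Whether the difference between fractions depended on the culture was tested as an interaction, the log2 fold change of EpCAM+ over EpCAM- in monoculture less that in coculture. It was called positive for 15 members and negative for 10, against 26% and 39.2% of all genes. The median was 0.00 against -0.08 for all genes. Licensing genes were positive in 8 of 10 and negative in 0, with between 6 and 9 positive under the 19 alternatives, so for these 8 the gap between fractions was wider in monoculture.

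The 3 highest interaction terms were those of Orc6 (0.42, SE 0.0392, adjusted p = 4.9e-05), Ccne2 (0.40, SE 0.0841, adjusted p = 0.00369) and Cdc6 (0.32, SE 0.068, adjusted p = 0.00391). For Orc6 the fraction difference went from 0.25 in coculture to 0.67 in monoculture. For Ccne2, which was lower in EpCAM+ cells, a positive term means a smaller gap in monoculture. The 3 lowest were Tk1 (-0.40, SE 0.0355, adjusted p = 3.8e-05), Pole2 (-0.32, SE 0.0964, adjusted p = 0.0201) and Prim1 (-0.28, SE 0.0474, adjusted p = 0.00128). The Pole2 term was not called without monoculture EpCAM- replicate 1, coculture EpCAM+ replicate 2 or coculture EpCAM- replicate 1 (adjusted p = 0.068, 0.063 and 0.058).

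Levels of the 42 genes spanned a wide range. Pcna was the most abundant in all 4 groups, with means of 196, 177, 185 and 178 FPKM in coculture EpCAM+, coculture EpCAM-, monoculture EpCAM+ and monoculture EpCAM-, and Rrm2 was next in each. The 2 libraries of a group agreed closely: over the 168 pairs of a gene and a group the coefficient of variation had a median of 1.82% and a range from 0.00730% to 14.0%, the highest being Orc1 in monoculture EpCAM-.

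A wider list of 68 other replication genes, all tested, was set beside the members. In coculture 56 were called higher in EpCAM+ cells and 8 lower, against 59.2% and 28% of all genes. In monoculture the counts were 52 and 8, against 55.4% and 32.4%. The medians were 0.38 and 0.42, against 0.26 and 0.23 for all genes. Scaling by the median of ratios left 36 higher and 18 lower in coculture, against 41.4% and 42.3% of all genes. In monoculture it left 41 and 15, against 42.9% and 42.9%. Between cultures 11 were higher and 24 lower in monoculture EpCAM+ cells, against 16.4% and 34.9% of all genes. In monoculture EpCAM- cells 14 were higher and 24 lower, against 32.4% and 30.3%. The interaction was positive for 16 and negative for 17, against 26% and 39.2% of all genes.

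The fold changes of this list reached further than those of the members. Myb, a transcription factor of cycling progenitors, measured 4.02 and 3.88 FPKM in coculture EpCAM+ and 3.47 and 3.63 in monoculture EpCAM+. It was at 0.00837 and 0.0143 FPKM in coculture EpCAM- and listed at 0 in both monoculture EpCAM- libraries. E2f8, a repressive E2F factor, had a mean of 33.9 ± 0.213 against 8.06 ± 0.274 FPKM in coculture and 42.5 ± 0.8 against 7.82 ± 0.213 in monoculture (SD, n = 2), a log2 fold change of 1.95 and 2.30. E2f2, an activating factor like E2f1, was higher in EpCAM+ cells by 1.96 in coculture (adjusted p = 6.52e-09) and by 1.54 in monoculture, the opposite direction to E2f1. Nasp, a histone chaperone, was higher by 1.69 in monoculture.

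Pold4, the smallest subunit of polymerase delta, was lower in EpCAM+ cells by -2.50 in monoculture (adjusted p = 8.34e-09), with 5.09 and 4.92 FPKM against 31.9 and 34.2. Pole4, the smallest subunit of polymerase epsilon, was lower by -0.96 in coculture and -0.90 in monoculture. E2f6, a repressive E2F factor, was lower by -0.75 in monoculture. Rpa1, which coats single-stranded DNA, was lower by -0.73 in coculture with a standard error of 0.194 (adjusted p = 0.0076).

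Between cultures, the members of this list with the highest fold changes in EpCAM+ cells were Dctd (0.48), E2f8 (0.31) and E2f4 (0.31), and those with the lowest were Rb1 (-0.53), the retinoblastoma gene, E2f2 (-0.43) and Timeless (-0.41). In EpCAM- cells Rbl2 (0.38), E2f6 (0.38) and Pold4 (0.36) were the highest. Shmt1 (-1.02), which makes one-carbon units for thymidylate synthesis, Dctd (-0.79) and Dna2 (-0.51) were the lowest. Dctd, dCMP deaminase, thus moved in opposite directions in the 2 fractions, with an interaction of 1.28 (SE 0.0693, adjusted p = 2.79e-06).

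Gmnn encodes geminin, the inhibitor of Cdt1 that is present from S phase to mitosis. The ratio of Cdt1 to Gmnn FPKM within a library was 0.557 and 0.582 in coculture EpCAM+ and 0.594 and 0.576 in monoculture EpCAM+. It was 0.980 and 1.02 in coculture EpCAM- and 0.640 and 0.679 in monoculture EpCAM-. The coculture EpCAM- libraries stood above the other 6.

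A list of 10 genes of the cell cycle outside S phase, most of them acting in mitosis, was set beside the members. All 10 were called higher in EpCAM+ cells in both cultures, against 59.2% and 55.4% of all genes. Their medians were 0.72 and 0.50, against 0.26 and 0.23 for all genes. Scaling by the median of ratios left 10 higher in coculture and 9 in monoculture, where Ccnb2 came to 0.05 (adjusted p = 0.356). Top2a, the topoisomerase that untangles chromosomes, measured 142 and 144 FPKM in coculture EpCAM+ against 49.1 and 51.7 in coculture EpCAM-, and 132 and 127 against 52.8 and 54.2 in monoculture. Mki67, the proliferation marker, was higher in EpCAM+ cells by 0.52 and 0.56.

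In the comparison of cultures, 0 of these 10 were higher and 6 lower in monoculture EpCAM+ cells, against 16.4% and 34.9% of all genes. Scaling by the median of ratios gave 1 higher and 4 lower. In monoculture EpCAM- cells 7 were higher and 2 lower, against 32.4% and 30.3% of all genes. These counts were 5 and 3 under quantile normalization, and 7 and 1 with scaling by the median of ratios. The median of the 10 was 0.14 there, while the 10 licensing genes were all lower, with a median of -0.24. Mki67 was lower in monoculture in both fractions, by -0.37 (adjusted p = 0.000526) and -0.41 (adjusted p = 0.000159). Top2a was lower in EpCAM+ cells by -0.14 (adjusted p = 0.00608) and higher in EpCAM- cells by 0.09 (adjusted p = 0.0385). No direct test between the lists was made.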

How the data were processed

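Libraries were sequenced as paired-end reads. Per the submitters' processing notes, FastQC, cutadapt, HISAT2, SAMtools, HTSeq and edgeR were used with the mm10 build, with no versions. For the gene annotation, strand setting and multi-mapped reads nothing is given in the sources used here. The FPKM values were used as the authors deposited them. The files hold no counts, so the depth of a library is unknown and no counting error is given.

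A gene was kept if 2 or more of the 8 libraries reached 1 FPKM (12012 genes). log2(FPKM + 1) was fitted with limma 3.58.1 in R 4.3.3 (4 group means, 4 residual degrees of freedom, eBayes with trend) and p-values were Benjamini-Hochberg adjusted over all tested genes. Calls needed an adjusted p under 0.05. A fold change on the log2(FPKM + 1) scale understates that of low genes. For a single gene an exact permutation test of 2 against 2 cannot go below p = 0.333.

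Members and lists were chosen with earlier results of these data known. Named were the 4 highest and 4 lowest called members of each comparison (3 and 3 for the interaction and for the other replication genes), 10 key members, Mki67 and Top2a; other members, and the ratios within a library, were added after their values were seen. On simulated data for the coculture comparison with 12012 genes, the fit found 56% of genes changed by 0.25 (log2), 92% by 0.5 and 100% by 1. Of its calls 3.43% were false. Each of these changes, and -0.5, was given to 50 genes, and the remaining genes were left unchanged. In the real comparison 59.2% of all genes were called higher and 28% lower, so these rates need not carry over to it. Gene positions came from GENCODE (GRCm38) and promoters from RefSeq (GRCm38.p6).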

Additional observations from a re-analysis of the deposited data

Results flagged for a closer look

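For 25 of the 42 genes the difference between EpCAM+ and EpCAM- cells itself differed between monoculture and coculture, by the interaction test in limma at an adjusted p under 0.05. The term was positive for 15 and negative for 10 of the 42, against 26% and 39.2% of all tested genes. Most of all tested genes were thus called as well.

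Positive terms were found for 8 licensing genes, Orc6 (0.42), Cdc6 (0.32), Orc1 (0.31), Cdt1 (0.24), Mcm4 (0.18), Mcm7 (0.17), Mcm3 (0.14) and Mcm6 (0.14). Among the other roles they were found for Ccne2 (0.40), Ccne1 (0.28), Mcm10 (0.22), Rrm1 (0.21), Pold1 (0.14), Uhrf1 (0.13) and Dut (0.12). The Ccne1 term was not called without coculture EpCAM+ replicate 2 (adjusted p = 0.051), nor that of Pold1 (adjusted p = 0.055). Some other terms were lost when single libraries were left out, that of Orc1 with 5 of them in turn (adjusted p between 0.073 and 0.105), of Dut with 4 (between 0.065 and 0.084) and of Mcm3 with 3 (between 0.056 and 0.070).

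Negative terms were found for Tk1 (-0.40), Pole2 (-0.32), Prim1 (-0.28), Chaf1b (-0.27), Gins3 (-0.26), Pola2 (-0.21), Gins2 (-0.20), Rfc2 (-0.20), Lig1 (-0.18) and Pcna (-0.0909). The Gins2 term was not called with scaling by the median of ratios (-0.17, adjusted p = 0.06), nor without any of 5 libraries in turn (adjusted p between 0.062 and 0.097). The Gins3 term was lost without any of 5 libraries in turn (between 0.062 and 0.101) and with quantile normalization (-0.07, adjusted p = 0.525), and the Pole2 term without any of 3 (between 0.058 and 0.068). The Pcna term was not called without any of 6 of the 8 libraries in turn, with adjusted p between 0.051 and 0.12. It was called without monoculture EpCAM- replicate 2 and without coculture EpCAM- replicate 2.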

How the results depend on the processing

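Both the scaling and single libraries moved counts of calls. Under scaling by the median of ratios 20 members were called higher and 11 lower in coculture and 11 lower in monoculture, and 9 were lower in monoculture EpCAM+ cells. Quantile normalization gave 22 higher and 9 lower in coculture, 8 lower in monoculture and 5 higher in monoculture EpCAM- cells. Under the median of ratios Cdt1 in coculture came to -0.0487, and Pcna to -0.14 in coculture and -0.20 in monoculture. Pcna in monoculture was -0.0098 with a constant sum. The change of scale itself lowers each EpCAM+ library against the EpCAM- libraries. Among all tested genes the calls in coculture went with it from 59.2% higher and 28% lower to 41.4% and 42.3%.

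Leaving out each library in turn gave 32 to 37 members higher and 5 lower in coculture, 31 to 33 higher and 5 to 6 lower in monoculture, 3 to 6 higher and 12 to 22 lower between cultures in EpCAM+ cells, 2 to 10 and 18 to 21 in EpCAM- cells, and 11 to 16 positive and 7 to 11 negative interactions. A group reduced to 1 library is taken to vary like the others. Of the results for single named members under the alternatives, 1175 kept direction and call, 70 lost the call and 4 reversed.

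Same-numbered libraries did not deviate together over all tested genes (r from -0.0726 to 0.0406). This cannot decide whether they were handled as pairs, which the labels do not say. With the replicate block the counts were 34 and 5, 31 and 5, 5 and 22, 10 and 20, and 15 and 9, in the order above. The alternative with only the libraries compared could not be applied to the interaction, which needs all 8.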

Other observations

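Rpa1, the large subunit of the single-strand binding protein, varied widely between the 2 libraries in 3 of the 4 groups. It measured 45.6 and 33.7 FPKM in coculture EpCAM+, 77.1 and 56.0 in coculture EpCAM-, 41.7 and 31.1 in monoculture EpCAM+ and 58.4 and 58.1 in monoculture EpCAM-.

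Tested genes of chromosomes 3, 4 and 11 had medians of 0.53, 0.55 and 0.50 for EpCAM+ over EpCAM- in coculture and of 0.52, 0.52 and 0.47 in monoculture. On the other chromosomes the medians were at most 0.30 in coculture and 0.32 in monoculture. Of the 42 genes, Orc1 and Ccne2 lie on chromosome 4 and Cdc6 and Tk1 on chromosome 11. Less the chromosome median, Orc1 came to -0.08 in coculture and 0.26 in monoculture. DNA copy number was not measured in these files, and its part in these values was not tested.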
